A study of Mus musculus with 12 samples.

Results

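Abca1, Abcg1, Apoe, Nr1h3, Msr1, Olr1, Scarb1, Soat1, Pltp and Mylip encode proteins that take up modified lipoproteins, pass cholesterol out of cells or control these steps. The genes were chosen by their mouse symbol in the count table of the series. They are 10 of its 49315 genes, and each symbol matched 1 row. All 10 passed the filter on low counts and were among the 18702 genes tested. The RNA came from whole epididymal white adipose tissue (eWAT), the fat pad beside the male gonad, of 12 mice on a high-fat diet (HFD) labelled as 60% fat for 12 weeks. The 4 groups hold 3 libraries each, and each library is taken here as 1 mouse because the labels number the libraries within a group. Flox mice carry Mir181a2b2 flox/flox alleles with no Cre named, and KO mice are Mir181a2b2-/-, which removes Mir181a-2 and Mir181b-2 from the whole animal. Both genotypes received weekly intraperitoneal injections of vehicle or of methotrexate (MTX), a folate antagonist, at 1 mg/kg. MTX is used at low dose against inflammatory disease, whereas the study calls 1 mg/kg a high dose. The mice were age-matched males and cage-matched littermates per the methods of the study. Their age and inbred background are not given in the sources used here.

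Scavenger receptors bind oxidised or acetylated lipoproteins and carry their cholesterol into the cell, and cholesterol-loaded cells do not shut this uptake down. Cholesterol that is not needed is esterified for storage in droplets, or leaves through ABC transporters to apolipoproteins and high-density lipoprotein (HDL). The liver X receptors (LXR), nuclear receptors activated by oxysterols, raise transcription of transporters, apolipoprotein E, a phospholipid transfer protein and a ubiquitin ligase. In obese fat, adipocytes hold a large store of free cholesterol, and macrophages gather around dying adipocytes and load themselves with lipid.

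The 2 microRNAs made from the deleted locus share their seed, bases 2 to 8, which is in capitals below and pairs with target RNA. They are shown because they are what KO mice lack from chromosome 2, although the same mature sequences are also encoded by Mir181a-1 and Mir181b-1 on chromosome 1. The sequences are those of RefSeq on GRCm38.p6 and lie on the plus strand at chr2:38852741-38852763 and chr2:38853845-38853868.
mmu-miR-181a-5p: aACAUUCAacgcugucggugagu
mmu-miR-181b-5p: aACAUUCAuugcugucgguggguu
A 7-base match to this seed (TGAATGT) was searched in the longest annotated 3′ UTR (GENCODE M21) of each gene, on the transcript strand. Of the 10 genes, Soat1 alone held the match, at bases 2885 and 6156 of a UTR of 6534 bases. Among 15462 tested genes with a UTR, 17.3% held it. The UTRs of the 10 genes had a median length of 1967 bases, against 1075 for all. The Soat1 sites follow with 11 bases on each side and the match in capitals. The first, followed by an A, is at chr1:156428157-156428185 and the second at chr1:156424886-156424914 (GRCm38, minus strand).
Soat1 site 1: ttgttgatggaTGAATGTattaaaattac
Soat1 site 2: tggaggtacaaTGAATGTtctgaatgccc
A match of letters is a description and does not show that the site is used.

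Depth ranged from 19495310 to 23976469 counts per library. The microRNA precursors could not serve as a check of the deletion, since Mir181b-2 had 0 counts in all 12 libraries and Mir181a-2 had 2 counts in flox MTX replicate 4 and 0 in the other 11, where a count of 0 allows up to 3 counts. All 18 adipocyte markers, Fabp4 and Car3 the most abundant of them, exceeded 3 counts in every library. The flox vehicle libraries also held transcripts of neighbouring organs. The 27 epididymis markers summed to 6079, 17208 and 2016 in flox vehicle replicates 1, 3 and 4 as CPM, the read counts scaled to a common library total. Flox MTX replicate 1 followed at 627 CPM, while the remaining 8 libraries held 12.9 to 61.2 CPM of these markers. Testis germ cell markers had sums of 307 to 807 CPM in flox vehicle and of 32.6 to 66.7 CPM elsewhere. The 20 macrophage markers, with Lyz2 and Lgals3 on top, had sums of 939 to 1707 CPM in flox vehicle, 6581 to 11802 CPM in KO vehicle and 8957 to 15178 CPM in KO MTX. Flox MTX replicates 1, 2 and 4 had 3867, 8094 and 1159 CPM of them, so the mice of this group stood apart from each other. In bulk tissue, fewer cells of a type and less RNA per cell cannot be told apart.

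Per kilobase of exon, Apoe stood at a mean of 1855 CPM over the 12 mice and was the highest of the 10 genes. Pltp followed at 226 CPM per kilobase and Nr1h3 at 48.5. Abca1, Mylip, Scarb1, Abcg1 and Soat1 lay between 19.1 and 10.9, Msr1 at 5.36 and Olr1 at 1.13 CPM per kilobase. The genes also differed in how far they varied. The highest mouse was 1.89 times the lowest for Abca1 and 2.47 to 2.69 times for Scarb1, Apoe, Mylip and Nr1h3. It was 7.41 times for Abcg1, 10.2 times for Pltp, 10.9 times for Soat1 and 18.7 times for Msr1. The Olr1 ratio of 247 rests on a single read in flox vehicle replicate 1.

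**Figure D1:**
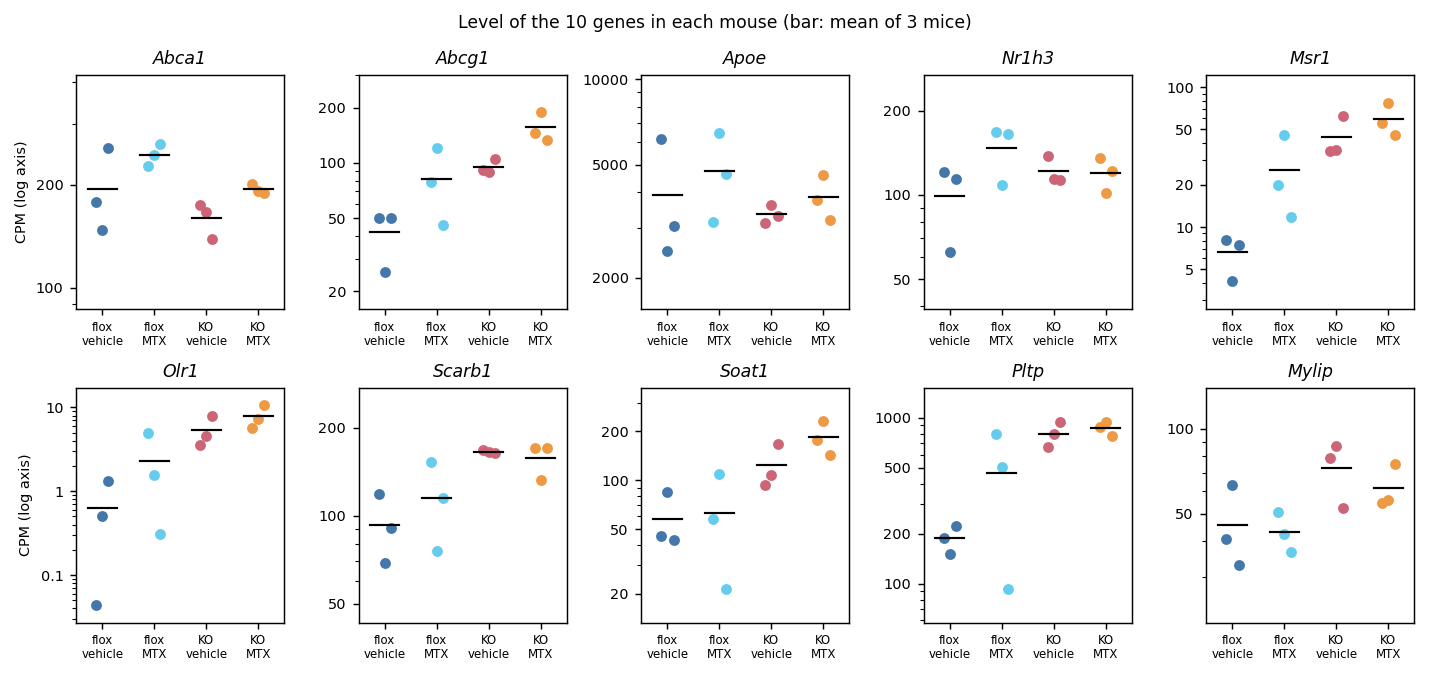
CPM of each gene in each mouse on a log axis, by group, with a bar at the mean of 3 mice. Msr1, Olr1, Pltp, Abcg1 and Scarb1 are higher in every KO vehicle mouse than in every flox vehicle mouse, whereas Abca1, Apoe and Nr1h3 overlap, and flox MTX mice spread widely for Msr1, Soat1 and Pltp.

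KO was first compared with flox under vehicle, which asks what loss of the locus does in obese fat without treatment. Of the 10 genes, 6 were called higher in KO mice and 0 lower: Msr1, Olr1 and Scarb1 among the receptors, Abcg1 among the transporters, and Pltp and Mylip. A gene was called at an adjusted p below 0.1 in edgeR's quasi-likelihood test and a fold change of at least 1.5. Over all genes tested 31.7% were called, 13.9% higher and 17.8% lower. The median log2 fold change was 0.97 for the 10 genes and -0.056 for all genes tested. The groups did not overlap for 6 genes, all higher in KO mice, where 48.1% of all genes did not overlap and 22.8% did so with KO higher.

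Msr1 (ENSMUSG00000025044, GRCm38 chromosome 8, 39581685 to 39642673, minus strand), the class A scavenger receptor of macrophages that binds acetylated LDL, measured 8.11, 4.13 and 7.48 CPM in the 3 flox vehicle mice (replicates 1, 3 and 4) and 34.9, 35.6 and 62.2 CPM in the 3 KO vehicle mice (replicates 1, 2 and 3), the order in which values are given from here on. The lowest KO mouse was thus well above the highest flox mouse. KO exceeded flox by 2.75 on the log2 scale, with a standard error (SE) of 0.48 and an adjusted p of 0.00358 (edgeR). A two-sided exact permutation of the 6 values gave p = 0.1, which is the lowest value 3 against 3 can reach. Olr1 (ENSMUSG00000030162, chromosome 6, 129485244 to 129507165, minus strand), the lectin-like receptor for oxidised LDL, is a rare transcript here. It was at 0.043, 0.51 and 1.34 CPM in flox mice, which is 1 to 29 reads, and at 3.58, 4.53 and 7.87 CPM in KO mice. Its log2 fold change of 3.08 carried an SE of 0.95 (adjusted p = 0.0327, edgeR), and with so few reads in flox mice the 95% interval was wide, from 0.98 to 5.17. Scarb1 (ENSMUSG00000037936, chromosome 5, 125277087 to 125341094, minus strand), which exchanges cholesteryl ester with HDL, was at 119, 69.1 and 90.9 CPM in flox mice and at 167, 165 and 164 CPM in KO mice. The KO mice were close together and all above the flox mice, with a log2 fold change of 0.83 (SE 0.25, adjusted p = 0.0303, edgeR). Without flox vehicle replicate 3, the library with the most epididymis transcripts, the value for Scarb1 was 0.66 and the call was lost (adjusted p = 0.105, edgeR).

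Of the transporters, Abcg1 was called and Abca1 was not. Abcg1 (ENSMUSG00000024030, chromosome 17, 31057675 to 31117988, plus strand), which passes cholesterol to HDL particles, was at 50.2, 25.5 and 50.1 CPM in flox mice and at 91.8, 89.7 and 105 CPM in KO mice. No mouse overlapped, and Abcg1 was higher in KO mice by 1.19 on the log2 scale (SE 0.33, adjusted p = 0.0219, edgeR). Abca1 (ENSMUSG00000015243, chromosome 4, 53030787 to 53159895, minus strand), which passes cholesterol and phospholipid to lipid-poor apolipoprotein A-I, was at 178, 148 and 256 CPM in flox mice and at 174, 167 and 139 CPM in KO mice. The groups overlapped, and the log2 fold change was -0.28 with a 95% interval of -0.69 to 0.14 (adjusted p = 0.293, edgeR).

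Of Nr1h3 and Mylip, only Mylip was called, and their 95% intervals overlapped. Nr1h3 (ENSMUSG00000002108, chromosome 2, 91184061 to 91202834, minus strand), which encodes LXRα, stood at 121, 62.5 and 114 CPM in flox mice and at 137, 114 and 113 CPM in KO mice. The groups overlapped, with a log2 fold change of 0.30 and a 95% interval of -0.25 to 0.85 (adjusted p = 0.402, edgeR). Mylip (ENSMUSG00000038175, chromosome 13, 45389742 to 45412022, plus strand), a ubiquitin ligase induced by LXR, was at 40.6, 63.4 and 33.0 CPM in flox mice and at 78.8, 87.2 and 52.3 CPM in KO mice. KO replicate 3 was below flox replicate 3, so the groups overlapped, and the exact two-sided permutation gave p = 0.2. Its log2 fold change of 0.67 (SE 0.26) passed the test narrowly (adjusted p = 0.0768, edgeR). The call was lost when any of flox replicates 1 and 4 or KO replicates 1 and 2 was left out (log2 fold changes 0.49 to 0.64, adjusted p up to 0.208, edgeR). It was also lost with library size as the only scaling, with the 6 libraries of the comparison alone and with the replicate number as a block.

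Of the secreted proteins, Pltp was called and Apoe was not. Pltp (ENSMUSG00000017754, chromosome 2, 164839518 to 164857711, minus strand), which transfers phospholipid between lipoproteins, was at 188, 151 and 223 CPM in flox mice and at 665, 793 and 946 CPM in KO mice. Every KO mouse was far above every flox mouse, with a log2 fold change of 2.10 (SE 0.55, adjusted p = 0.0158, edgeR). Its exons share 495 bases with those of Ctsa on the opposite strand, a lysosomal protease gene with 2532 to 16877 counts per library that was itself higher by 1.80 (adjusted p = 0.00503, edgeR), and the strand setting of the counting is not given in the sources used here. Apoe (ENSMUSG00000002985, chromosome 7, 19696109 to 19699188, minus strand), the apolipoprotein that macrophages and adipocytes secrete with cholesterol, was at 6169, 2484 and 3055 CPM in flox mice and at 3129, 3606 and 3312 CPM in KO mice. Flox replicate 1 stood above every KO mouse and the other 2 flox mice below every KO mouse, so the groups overlapped only through that mouse. The log2 fold change of Apoe was -0.22 with a 95% interval of -1.04 to 0.60 (adjusted p = 0.690, edgeR), and it was 0.28 without that mouse.

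Soat1 (ENSMUSG00000026600, chromosome 1, 156424525 to 156474331, minus strand) encodes the enzyme that esterifies cholesterol for storage in droplets. It was at 45.3, 84.5 and 42.5 CPM in flox mice and at 94.1, 108 and 168 CPM in KO mice. No KO mouse was as low as a flox mouse (exact permutation p = 0.1, two-sided), but flox replicate 3 came close to the lowest KO mouse. The log2 fold change of 1.10 (SE 0.49) did not pass the adjusted test (adjusted p = 0.114, edgeR). Without flox vehicle replicate 3 it was 1.49 and passed (adjusted p = 0.0805, edgeR), and Soat1 was also called by DESeq2, with the 6 libraries alone, with no filter on low counts and without flox MTX replicate 2 or 4.

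Macrophage markers moved with these genes, since 19 of 20 were called higher in KO vehicle mice, with a median log2 fold change of 2.76. Of 12 fibroblast markers 11 were called higher and 1 lower, with sums of 2197 to 4140 CPM in flox and 7949 to 12782 CPM in KO mice. Of 14 endothelial markers 12 were called higher, with sums of 611 to 905 and 1284 to 1943 CPM. Of 18 adipocyte markers 5 were called lower, with sums of 28829 to 66373 CPM in flox and 23281 to 41413 CPM in KO mice. With each library left out in turn, these counts ranged from 19 to 20 for macrophages, 8 to 11 for fibroblasts, 6 (without flox vehicle replicate 1) to 13 for endothelium and 1 (without KO vehicle replicate 2 or 3 or flox vehicle replicate 1) to 8 (without flox vehicle replicate 3) for adipocytes. The part of these markers in the result was not tested. With the epididymis and testis marker genes removed before normalization, the number of genes called among the 10 was again 6. This left 18670 of 18702 genes tested, so other transcripts of these organs stayed in and their part was not tested. Every flox vehicle library held far more of these markers than any KO library. Genotype and the presence of these organs thus cannot be told apart under vehicle.

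**Figure D2:**
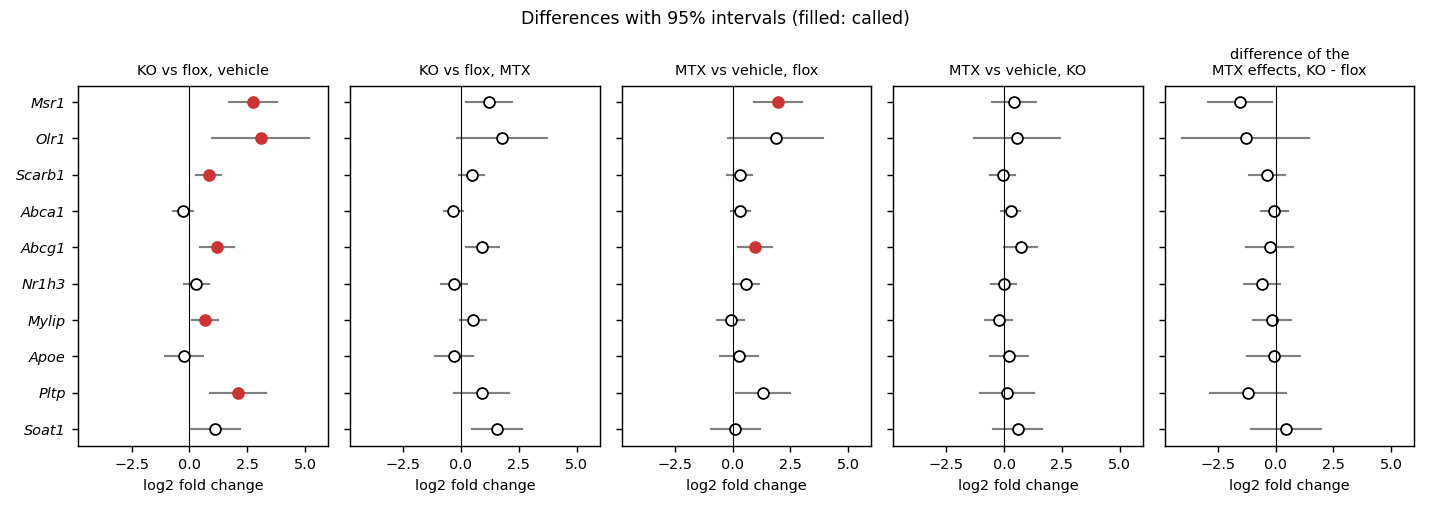
Log2 fold change of each gene in the 4 comparisons, and the difference between the MTX effects of KO and flox mice, with 95% intervals from the edgeR fit and filled points for called genes. Filled points are 6 under vehicle and 2 for MTX in flox mice, and each of the other 3 panels has none.

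MTX was then compared with vehicle in flox mice, which asks what the drug does where the locus is intact. Msr1 and Abcg1 were called higher with MTX and 0 genes lower, that is 2 of 10, where 24.2% of all genes were called, 8.09% higher and 16.1% lower. With library size as the only scaling, the 4528 genes called became 4373, the higher ones fell from 1513 to 766, and the median of all genes moved from 0.051 to -0.15. This comparison uses the same flox vehicle mice as that of KO with flox, so the values of the 2 are not independent. Epididymis markers were called lower with MTX in 12 of 18 tested cases and testis germ cell markers in 14 of 14. Every flox vehicle library held more of both than any flox MTX library. MTX and the presence of these organs thus cannot be told apart in flox mice.

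Msr1 measured 19.9, 45.3 and 11.9 CPM in the flox MTX mice (replicates 1, 2 and 4), above all 3 flox vehicle mice. It was the only one of the 10 genes whose groups did not overlap here, where 28.3% of all genes did not overlap (p = 0.1 for Msr1, exact permutation). The log2 fold change of Msr1 was 1.97 (SE 0.47, adjusted p = 0.0165, edgeR), and between 1.29 and 2.32 with each library left out in turn, past the limits each time. Abcg1 was at 78.9, 121 and 46.0 CPM with MTX. Replicate 4 lay below the 2 highest vehicle mice, so the groups overlapped, with p = 0.3 in the exact two-sided permutation. The log2 fold change of Abcg1 was 0.97 (SE 0.33, adjusted p = 0.0652, edgeR), a call that was lost with 3 single libraries left out. It was 0.71 without flox vehicle replicate 3 (adjusted p = 0.218, edgeR), 0.99 without flox MTX replicate 1 (adjusted p = 0.107) and 0.59 without flox MTX replicate 2 (adjusted p = 0.189).

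The flox MTX mice lay far from each other in the genes that vary most. Pltp was at 799, 507 and 93.1 CPM in replicates 1, 2 and 4, the last of them below every vehicle mouse. Soat1 was at 57.3, 109 and 21.2 CPM and Olr1 at 4.96, 1.55 and 0.31 CPM in the same order. Replicate 4 was thus the lowest mouse of its group for Msr1, Olr1, Abcg1, Soat1 and Pltp, and it also had the lowest sum of macrophage markers in the group. The log2 fold changes of Pltp (1.32, adjusted p = 0.110, edgeR), Olr1 (1.86, adjusted p = 0.185) and Soat1 (0.12, adjusted p = 0.883) did not pass. Pltp was called by DESeq2 (1.31, adjusted p = 0.0491) and, by edgeR, without a low-count filter (1.34, adjusted p = 0.0780). Without flox MTX replicate 4, Pltp was at 1.81 (adjusted p = 0.00984, edgeR) and Olr1 at 2.38 (adjusted p = 0.0727), both called. Then 4 of the 10 genes were called in place of 2, where 4999 of all 19644 genes tested were called.

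Nr1h3 was at 168, 108 and 165 CPM with MTX, a log2 fold change of 0.57 that did not pass (95% interval 0.022 to 1.12, adjusted p = 0.132, edgeR). Without flox MTX replicate 2 it was 0.76 and called (adjusted p = 0.0602, edgeR). Abca1 was at 227, 244 and 262 CPM, with 1 vehicle mouse above 2 of these mice, and its log2 fold change was 0.33 (95% interval -0.081 to 0.75, adjusted p = 0.237, edgeR). Without flox vehicle replicate 4, that vehicle mouse, Abca1 was at 0.59 and called (adjusted p = 0.0210, edgeR), and so was Olr1 at 3.0 (adjusted p = 0.0666). Apoe at 3157, 6499 and 4626 CPM, Scarb1 at 153, 75.7 and 115 CPM and Mylip at 50.7, 42.3 and 36.5 CPM overlapped with vehicle, with log2 fold changes of 0.29, 0.30 and -0.081. Macrophage markers were called higher with MTX in 19 of 20 cases (median 1.86), in 5 without flox vehicle replicate 3 and in 11 without flox MTX replicate 2. Fibroblast and lymphocyte markers were called higher in 7 of 12 cases each, and without flox vehicle replicate 3 in 0 and 1 cases. Of 10 mesothelium markers 7 were called higher and 2 lower, while their summed level was 355 to 724 CPM under vehicle and 271 to 568 CPM with MTX. Without flox MTX replicate 2 the lymphocyte markers again had 1. The part of these markers in the result was not tested.

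KO was next compared with flox under MTX. Here 0 of the 10 genes were called, as were 0% of all genes tested by edgeR, with a smallest adjusted p of 0.104. At an unadjusted p below 0.05 stood 3 of the 10 genes and 24.5% of all genes. DESeq2 called 3 of the 10 genes and 2769 of the 16493 genes it tested. The 3 genes were Soat1, Abcg1 and Msr1 in both counts. The groups did not overlap for 6 of the 10, where 26.8% of all genes did not. The median log2 fold change of the 10 genes was 0.71, against -0.045 for all.

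Soat1 was at 177, 232 and 144 CPM in KO MTX replicates 2, 3 and 4, each above the 57.3, 109 and 21.2 CPM of flox MTX. Its log2 fold change of 1.56 (95% interval 0.47 to 2.65, adjusted p = 0.117, edgeR) was the highest value among the genes whose interval stayed above 0. Msr1 was at 55.8, 77.1 and 45.7 CPM in KO MTX, only just above the highest flox MTX mouse, with a log2 fold change of 1.21 (95% interval 0.23 to 2.19, adjusted p = 0.143, edgeR). Abcg1 at 146, 189 and 133 CPM did not overlap with flox MTX either, with a log2 fold change of 0.93 (95% interval 0.20 to 1.66, adjusted p = 0.136, edgeR). Flox MTX replicate 2 was the mouse of its group with the most macrophage transcripts. Its lymphocyte markers summed to 1279 CPM, against 113 CPM in replicate 1 and 386 CPM in replicate 4. Without flox MTX replicate 2, Soat1 was at 2.23, Msr1 at 1.90 and Abcg1 at 1.32, and these 3 were called (adjusted p = 0.0286, 0.0285 and 0.0313, edgeR). The genes called in all then rose from 0 to 4064 of 19532 tested.

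Olr1 was at 5.70, 7.19 and 10.7 CPM and Mylip at 54.5, 55.9 and 75.3 CPM in KO MTX mice, in both cases above all flox MTX mice, with log2 fold changes of 1.78 (95% interval -0.15 to 3.70) and 0.52 (-0.057 to 1.09). Abca1 had the opposite sign. It was at 201, 192 and 190 CPM, below all 3 flox MTX mice, with a log2 fold change of -0.33 (95% interval -0.75 to 0.083, adjusted p = 0.299, edgeR). Pltp was at 883, 941 and 772 CPM in KO MTX and overlapped with flox MTX replicate 1, with a log2 fold change of 0.89 (95% interval -0.28 to 2.07). Scarb1 at 171, 132 and 171 CPM, Apoe at 3749, 4609 and 3197 CPM and Nr1h3 at 136, 102 and 122 CPM also overlapped, with log2 fold changes of 0.46, -0.31 and -0.30. Of the 20 macrophage markers edgeR called 0, 15 had an unadjusted p below 0.05 and DESeq2 called 15, with a median log2 fold change of 1.31, and their part in these values was not tested.

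In KO mice, MTX was set against vehicle. None of the 10 genes was called by edgeR, 0 had an unadjusted p below 0.05 and 0 were called by DESeq2. Of all genes tested 0% were called by edgeR and 7.97% had an unadjusted p below 0.05, while DESeq2 called 281 of 18669. The groups did not overlap for Abca1 and Abcg1, both higher with MTX, which is 2 of 10 against 20.7% of all genes, or 11.1% in that direction. Abcg1 had a log2 fold change of 0.71 (95% interval -0.018 to 1.44) and Abca1 of 0.28 (95% interval -0.13 to 0.69). The other 8 genes ranged from -0.23 for Mylip to 0.58 for Soat1. Msr1 was at 0.43 with a 95% interval of -0.54 to 1.40 and Pltp at 0.11 with an interval of -1.06 to 1.28, so sizable changes in either direction lie inside these intervals.

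Whether MTX acted differently in KO and flox mice was tested as an interaction. None of the 10 genes was called by edgeR or by DESeq2. Of all genes tested, edgeR called 0.989%, and DESeq2 called 1248 of 18669. Msr1 alone had an unadjusted p below 0.05, where 15% of all genes did. Its MTX effect was lower in KO than in flox mice by a log2 value of -1.54 (95% interval -2.93 to -0.15, adjusted p = 0.287, edgeR). Pltp had -1.21 (95% interval -2.86 to 0.45) and Olr1 -1.30 (95% interval -4.05 to 1.44). Without flox MTX replicate 4 the value for Pltp was -1.71 and was called (adjusted p = 0.0975, edgeR). Soat1 was the only one of the 10 with a value above 0, at 0.46 (95% interval -1.05 to 1.97). The other 6 genes lay between -0.59 for Nr1h3 and -0.054 for Abca1. All 20 macrophage markers had values below 0 (median -1.30), and their part in these values was not tested. Of 14 testis germ cell markers 12 were called higher in the interaction (median 9.56), and of 18 tested epididymis markers 0. With these marker genes removed before normalization, 122 of 18670 genes were called in place of 185. The flox vehicle libraries enter this test, so the presence of these organs and the interaction cannot be told apart.

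Over the 4 groups, the mean levels of Abcg1, Msr1, Olr1, Soat1 and Pltp had the order flox vehicle, flox MTX, KO vehicle, KO MTX from low to high. Of the neighbours in that order, flox vehicle and flox MTX did not overlap for Msr1, nor did KO vehicle and KO MTX for Abcg1, and the other pairs overlapped. Scarb1 had the same order with the KO groups exchanged, and all its neighbours overlapped. Mylip ran from flox MTX through flox vehicle and KO MTX to KO vehicle, again with overlap at each step. Abca1 ran from KO vehicle (160 ± 18.7 CPM, SD, n = 3) through flox vehicle (194 ± 55.5) and KO MTX (194 ± 5.97) to flox MTX (244 ± 17.6), and the last step did not overlap. Apoe and Nr1h3 had their highest mean in flox MTX (4761 ± 1675 and 147 ± 33.7 CPM, SD, n = 3), with overlap at every step.

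Each gene was also set against the macrophage markers of the same mouse, as its log2 CPM minus the mean log2 CPM of the 20 markers. This is a description without a test. For Msr1 the group means of the difference ran from -2.51 in KO MTX to -2.23 in flox MTX, and KO vehicle exceeded flox vehicle by 0.074. Single flox MTX mice ran from -2.66 to -1.67, and the KO MTX mice from -2.52 to -2.47. Olr1 exceeded it by 0.73, with its lowest mouse at 1 read. All other genes had a smaller difference from the markers in KO than in flox vehicle mice, by -0.56 for Pltp, -1.42 for Abcg1, -1.53 for Soat1 and -1.80 for Scarb1. The change was -1.97 for Mylip, -2.31 for Nr1h3, -2.77 for Apoe and -2.91 for Abca1. Soat1 had a similar difference in every group but flox vehicle, with means of -0.91 in KO vehicle, -1.03 in flox MTX and -0.87 in KO MTX against 0.62 in flox vehicle. In flox vehicle the Soat1 difference was largest, at 1.70, in replicate 3, where epididymis markers were also highest.

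**Figure D3:**
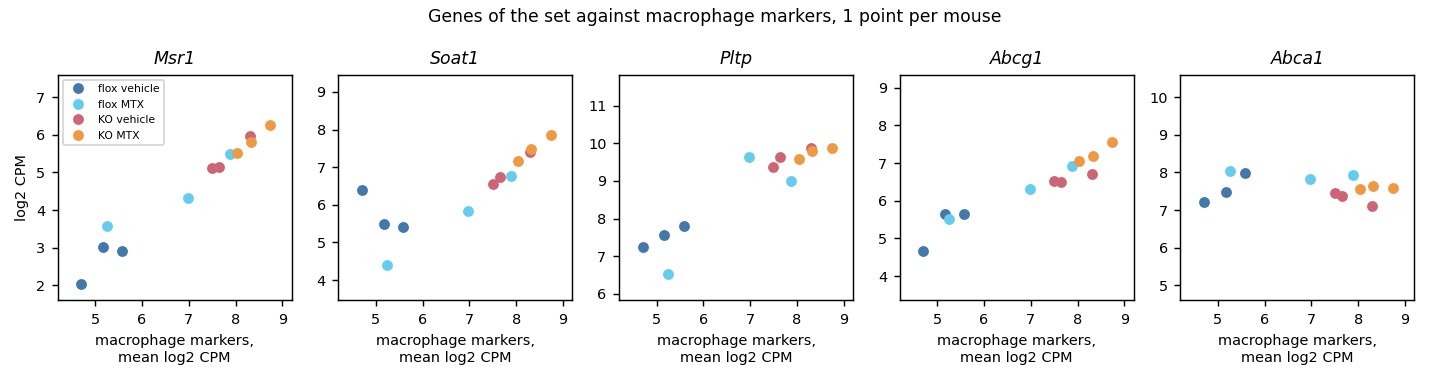
Log2 CPM of 5 genes in each mouse against the mean log2 CPM of the 20 macrophage markers in the same mouse, coloured by group, with every vertical axis spanning 6 log2 units. Msr1 climbs together with the markers, Soat1 does so except for the flox vehicle mice, Pltp levels off, Abcg1 climbs less steeply and Abca1 stays near the same level.

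For each gene, the 3 tested genes with the most similar profile were taken by the root mean square difference of log2 CPM over the 12 libraries, after centring each gene on its mean. Msr1 lay nearest to Cd53 (0.17), Gpr65 (0.18) and Cd48 (0.19), which encode surface proteins of leukocytes, and its own SD over the libraries was 1.38. The other genes are given in the same way, with the SD of the gene itself, since a gene that varies little lies close to many others. Abcg1 (SD 0.83) lay nearest to Frmd6 (0.12), Tspyl3 (0.19) and Dapp1 (0.20), and Soat1 (SD 1.01) to Galnt7, Padi2 and Plxnb2 (each 0.20). Pltp (SD 1.2) lay nearest to Cpxm1 (0.24), Gm31718 (0.26) and Ptprn (0.28), and Olr1 (SD 1.98) to Gm20056 (0.72), Ubd (0.75) and Rgs18 (0.77). Abca1 (SD 0.30) had Pdgfc (0.10), Arl5a and Rdh10 (0.11 each), Nr1h3 (SD 0.37) had Mlkl (0.12), Rnf144a and Gars (0.13 each), and Apoe (SD 0.42) had Slit3 (0.18), Zfp809 (0.19) and Rdm1 (0.22). Mylip (SD 0.44) had Prkar1b (0.18), Gba2 (0.20) and Agtr1a (0.21), and Scarb1 (SD 0.47) had Cadm3 (0.16), Pkmyt1 (0.19) and Adora2a (0.20).

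Other genes of cholesterol handling were described in 4 lists. Of 14 further scavenger receptors, 13 were tested, and in KO against flox under vehicle 9 were called higher and 0 lower, where 13.9% of all genes were called higher. Their median log2 fold change was 1.25, against -0.056 for all genes. Cd68, a lysosomal glycoprotein of macrophages, stood at 27.3 to 43.3 CPM in flox and at 353 to 756 CPM in KO mice, a log2 fold change of 3.80. Stab1 and Stab2, which clear modified proteins and hyaluronan, had 2.27 and 2.33, and Scara3 had 1.69. Those not called were Cd36, Marco, Scara5 and Scarb2. In flox mice MTX gave 9 higher and 0 lower (median 0.86), where 8.09% of all genes were called higher, with Marco, a class A receptor for bacteria, at 2.05 to 5.77 CPM under vehicle and at 12.7 to 33.6 CPM with MTX. The log2 fold changes of Marco, Cd68, Stab2 and Stab1 there were 2.33, 2.04, 1.81 and 1.46. In flox MTX replicate 4, Cd68 was at 17.9 CPM, below every flox vehicle mouse. Stab2 at 1.75 and Stab1 at 87.3 CPM in that mouse lay inside the vehicle ranges of 1.06 to 2.91 and 74.3 to 91.2 CPM. Flox MTX replicates 1 and 2 were above all vehicle mice for these genes. The count for MTX fell to 2 without flox vehicle replicate 3 and to 4 without flox MTX replicate 2, while that for KO was 9 or 10 with any library left out.

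Of 12 tested partners and further targets of LXR, 2 were called higher and 2 lower in KO against flox under vehicle (median -0.21), a share near the 31.7% of all genes. Srebf1, the LXR target that drives fatty acid synthesis, had a log2 fold change of -1.50, from 348 to 476 CPM in flox to 114 to 165 CPM in KO mice (adjusted p = 0.00909, edgeR). Abca9, an ABC transporter, had a log2 fold change of 1.56 both for KO under vehicle and for MTX in flox mice. Arl4c had -1.77 in KO and -2.03 with MTX, and its levels of 57.9, 135 and 39.1 CPM in the flox vehicle mice had the order of the epididymis markers in these libraries. Abcg5, at most 1.40 CPM in any mouse, had a log2 fold change of 1.32. In flox mice MTX gave 1 higher and 1 lower call, Abca9 and Arl4c, where 24.2% of all genes were called. With each library left out, the calls under vehicle were 1 or 2 higher and 2 or 3 lower, and those for MTX 1 or 2 in each direction.

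Of 14 genes of lysosomal cholesterol release, ester handling and oxysterol synthesis, 3 were called higher and 4 lower in KO against flox under vehicle. Of all genes 13.9% were called higher and 17.8% lower there. With MTX in flox mice 3 of the 14 were called higher and 3 lower, where 8.09% and 16.1% of all genes were. The higher ones under vehicle included Lipa, the lysosomal acid lipase, which stood at 91.6 to 106 CPM in flox and at 331 to 551 CPM in KO mice (log2 fold change 2.09, adjusted p = 0.00629, edgeR). Nceh1, a neutral cholesteryl ester hydrolase, went from 9.91 to 16.8 CPM in flox to 87.9 to 164 CPM in KO mice (3.09, adjusted p = 0.00600, edgeR), and Npc1 was also called higher. Ces1d, a carboxylesterase of adipocytes, fell by 1.89. With MTX in flox mice, Nceh1 had 1.88, Lipa 1.17 and Gramd1c -1.23. In flox MTX replicate 4, Nceh1 at 8.07 and Lipa at 75.0 CPM were below every flox vehicle mouse, while replicates 1 and 2 were above. Ch25h, which makes 25-hydroxycholesterol, had -5.35 in KO and -3.87 with MTX, and its levels in the flox vehicle mice were 21.7, 43.4 and 5.54 CPM, again in the order of the epididymis markers. The 3 higher calls for MTX became 0 without flox vehicle replicate 1 or 3 or flox MTX replicate 1 or 2, the 3 lower calls for MTX became 1 without flox vehicle replicate 3, and the 4 lower ones under vehicle became 2 without KO vehicle replicate 3.

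Of 11 tested genes of HDL and lipoprotein receptors, 4 were called higher and 2 lower in KO against flox under vehicle (median 0.74). Of all genes 13.9% were called higher and 17.8% lower there. With MTX in flox mice 0 of the 11 were called higher and 2 lower, where 8.09% and 16.1% of all genes were. Lcat, which esterifies cholesterol on HDL, and Lrp1, a large endocytic receptor that binds apolipoprotein E, had log2 fold changes of 1.06 and 0.92 in KO mice. Abca7 was also called higher. Lipg, the endothelial lipase, had -6.09 in KO and -4.30 with MTX and stood at 50.2, 106 and 23.6 CPM in the flox vehicle mice, once more in the order of the epididymis markers. Lrp8, a receptor for apolipoprotein E, had -1.67 and -1.95 in the 2 comparisons. Lrp8 stood at 1.39, 9.95 and 9.10 CPM in the flox vehicle mice, which is not the order of the epididymis markers. Nor did Srebf1 (476, 353 and 348 CPM) and Ces1d (1248, 358 and 570 CPM) have it. Gramd1c did, as did Soat1 and Mylip of the 10 genes. With 3 mice, an order alone says little. The count under vehicle was 3 to 5 higher and 1 or 2 lower with each library left out, and for MTX 0 to 2 higher and 1 or 2 lower. The part of the epididymis transcripts in these values was not tested. Lipg was the only gene of the 4 lists called in the interaction (5.11, adjusted p = 0.0791, edgeR).

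In KO against flox mice under MTX, edgeR called 0 genes of the 4 lists. Of all genes tested, 24.5% had an unadjusted p below 0.05 (edgeR). At an unadjusted p below 0.05 stood 4 scavenger receptors higher and 1 lower, 5 LXR genes lower, 4 lysosome and ester genes higher and 3 lower, and 4 HDL genes higher. DESeq2 called the same numbers there except 3 HDL genes. With MTX in KO mice edgeR called 0 genes of the 4 lists, and DESeq2 called 0. In edgeR 1 scavenger receptor was higher and 1 HDL gene lower at an unadjusted p below 0.05, which 7.97% of all genes had.

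**Figure D4:**
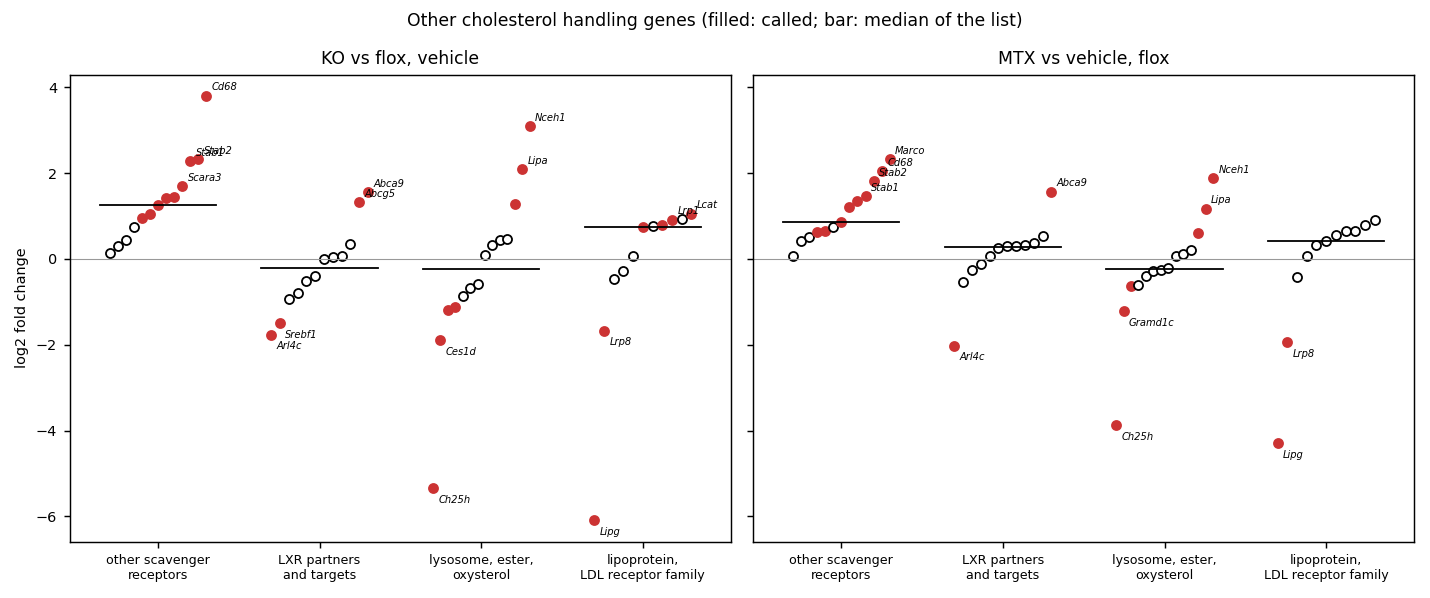
Log2 fold changes of the genes in 4 lists of cholesterol handling, sorted within each list, for KO against flox under vehicle (left) and MTX against vehicle in flox mice (right). Filled points are called, bars are list medians, and the names are those of up to 4 called genes per list. Scavenger receptors lie above 0 in both panels, and the lowest points are Lipg and Ch25h.

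Promoter windows of 300 bases around the start were given by RefSeq (GRCm38.p6) for 7 of the 10 genes in 10 windows. A direct repeat of AGGTCA with a spacer of 4 bases, the arrangement known for LXR with its partner RXR, was searched on both strands with up to 2 mismatches in its fixed letters. It was in 0 of the 10 windows and in 3.02% of all 32851 windows. The Abca1, Nr1h3, Apoe, Pltp, Mylip, Soat1 and Olr1 windows thus hold no such letters, and nothing follows from this about the factor.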

How the data were processed

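The authors trimmed reads with Trimmomatic 0.36, aligned them with STAR 2.5.2b to the mouse genome (GRCm38/mm10) and counted reads per Ensembl gene with featureCounts (Subread 1.5.2). The deposited counts are whole numbers of reads and were not normalized. The labels name polyA RNA whereas the methods name depletion of ribosomal RNA, and neither gives the strand setting. Symbols matched 99.3% of genes, and genes without one held 0.0688% of counts. No sample column was left unused.

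All tests across genes used edgeR 4.0.16 under R 4.3.3, with TMM, filterByExpr, 1 coefficient per group over 12 libraries (8 residual degrees of freedom), the quasi-likelihood F-test and Benjamini-Hochberg adjustment over 18702 genes. Calls needed a 1.5-fold difference and an adjusted p below 0.1, which is 1 reading of the limits in the methods. CPM use TMM factors, summed marker lists are shares of all counts, and distances between genes use log2 CPM with a prior count of 2. Coordinates and exon lengths are from GENCODE M21. The genes and lists were chosen with earlier results of these data known. By rule, the text names the 10 genes (in the last 2 comparisons some only by their range), up to 4 called genes per list by size of change, the 3 nearest genes, and the top 2 markers of main lists. Other named genes were chosen after their values were seen. P-values measure the spread between these libraries, and floors and counts of 0 cover counting error only.

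The procedure was tested on simulated counts for KO against flox under vehicle: of 200 genes changed 4-fold among 18272 tested, 144 were called, with 13 unchanged genes. The changed genes rose and fell in equal number, and no library was given extra epididymis or testis transcripts. How the procedure does where 31.7% of genes are called, as in the data, was thus not tested. Libraries with the same replicate number showed little residual correlation (12 pairs, median 0.035, from -0.27 to 0.25, against 0.011 for 42 other pairs). With 3 libraries per group this cannot exclude a pairing of mice. The methods name cage-matched littermates, and the labels do not say which mice these were. No 2 libraries of the same group were duplicates, and libraries of different groups were not compared in this way. The alternatives were DESeq2 1.42.0, other scalings, filters, limits and samples, the replicate block, and each library left out.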

Additional observations from a re-analysis of the deposited data

How the results depend on the processing

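The number of the 10 genes called in KO against flox under vehicle was 6, and 5 to 7 with each library left out; it was 3 with a log2 fold limit of 1.5. In KO against flox under MTX it was 0, and 1 without a filter on low counts or with at least 10 counts in every library, 3 with DESeq2 and 0 to 3 with each library left out, the 3 being without flox MTX replicate 2. For MTX in flox mice it was 2, and 1 with a log2 fold limit of 1.5, with library size as the only scaling, with the replicate block and with the 6 libraries alone, and 3 with DESeq2 and without a filter on low counts. It ranged from 1 (without flox vehicle replicate 3 or flox MTX replicate 1) to 4 (without flox vehicle replicate 4 or flox MTX replicate 4). For MTX in KO mice it was 0 throughout, and for the interaction 0, or 0 to 1 with each library left out. With the replicate block, Mylip (0.62, adjusted p = 0.196, edgeR) lost its call under vehicle and Abcg1 (0.82, adjusted p = 0.202) lost its call for MTX in flox mice; no other call among the 10 genes changed, while all genes called fell from 5924 to 5080, from 4528 to 2771 and for the interaction from 185 to 0. Leaving out 1 library moved all genes called for MTX in flox mice from 4528 to as few as 2219 (without flox vehicle replicate 3), and for the interaction from 185 to between 5 (without KO vehicle replicate 2) and 1371 (without flox vehicle replicate 4). The call of Msr1 in both comparisons with calls held in all alternatives. Directions turned for values near 0: Apoe in KO against flox under vehicle (-0.46 to 0.28 with each library left out), and for MTX in flox mice Soat1 (-0.022 with library size only, -0.54 to 0.54 with each library left out) and Mylip (-0.26 to 0.23). For MTX in KO mice these were Nr1h3 (0.010 with the replicate block, -0.12 to 0.085 with each library left out), Scarb1 (-0.13 to 0.046) and Pltp (-0.017 to 0.25). In the interaction they were Abca1 (0.12 with library size only, -0.31 to 0.11 with each library left out), Abcg1 (-0.55 to 0.12), Apoe (0.059 with library size only, 0.090 with the replicate block, -0.58 to 0.20 with each library left out) and Mylip (0.028 with library size only, -0.46 to 0.028 with each library left out). Library size as the only scaling moved the median of all genes from -0.045 to 0.12 for KO against flox under MTX and from -0.051 to 0.13 for the interaction. Olr1, with 1 to 29 reads in flox vehicle mice, was not tested with at least 10 counts in every library. The cause of these changes was not tested.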
